A study of Mus musculus with 12 samples.

Results

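The T-lineage specification genes are 10 genes chosen by name as regulators and early products of the T-cell program, out of the 32285 genes in the table. They are the transcription factors Tcf7, Gata3 and Bcl11b, the chromatin remodeler Chd7, the receptor genes Ptcra, Il2ra, Cd3d, Cd3e and Cd3g, and the kinase Lck. All 10 were in the table, and 4 of them (Tcf7, Gata3, Lck and Chd7) had enough counts to be tested. The other 6 were at 0 in most libraries.

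RNA was measured in Ly6d- CLPs and Flk2+ MPPs sorted from the BM of wild-type C57BL6/J mice at 1 month (1MO) or 3 months (3MO) of age. Each of the 4 groups (1MO CLP, 3MO CLP, 1MO MPP and 3MO MPP) had 3 libraries, so there were 12 in all. All animals had the same genotype, the labels give no treatment, and mature lineage cells, CD3+ cells among them, had been depleted before the sort. Flk2+ MPPs are multipotent progenitors that carry the cytokine receptor Flk2 (gene Flt3), and Ly6d- CLPs are lymphoid progenitors downstream of them that lack the surface protein Ly6d. The question of the study was how progenitors with T-lineage potential change between 1MO and 3MO.

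In the thymus, Notch signals turn on Tcf7, which encodes TCF1, and TCF1 and GATA3 then start the T-cell program. Bcl11b acts later and closes off the alternative fates, while Il2ra (CD25), Ptcra (the pre-TCR alpha chain) and the CD3 chains mark the stages at which the pre-T-cell receptor is assembled. Lck is the Src family kinase that phosphorylates the CD3 chains once a receptor is on the surface.

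The total of estimated counts per library ranged from 8889083 to 20677785, and 3 counts corresponded to between 0.148 and 0.329 CPM (read counts scaled to a common library size, here by TMM). Flt3 was at 1103 to 1524 CPM in all libraries and Il7r was at 299 to 402 CPM in CLPs and 5.24 to 18.5 CPM in MPPs. Ly6d RNA was low but not absent in the Ly6d- CLPs, at 1.03 to 7.26 CPM against at most 2.28 CPM in MPPs. Of 10 markers of mature alpha-beta T cells, Cd8b1 was at 0 in every library, and Cd2, Cd8a, Trbc1 and Trac were at most 0.511, 0.759, 1.45 and 1.85 CPM. The other 5 were higher, with Trbc2 up to 7.70 CPM, Cd5 up to 8.21 CPM, Cd4 up to 5.49 CPM in CLPs and 20.4 CPM in MPPs, and Cd6 and Cd28 up to 35.4 and 39.3 CPM in CLPs. Summed hemoglobin transcripts were 79.1 to 125 CPM in the replicate 3 libraries of all 4 groups and 8.97 to 25.1 CPM in the other libraries. Because whole sorted populations were measured, fewer expressing cells and less RNA per cell cannot be told apart.

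The promoter windows below are those of a gene that was on in every library, the kinase Lck, and of the receptor chains it serves, Ptcra, Cd3d, Cd3e and Cd3g, which were at or near 0. Each is the sequence just upstream of an annotated start, 5′ to 3′ on the strand of the gene, from RefSeq on GRCm38.p6, cut short where annotated UTR began. A promoter entry was found for 9 of the 10 genes. Capitals mark matches on either strand to the motifs searched, and matches that overlap are joined. GATA factors were searched for with AGATAA or with the variant TGATAA. TCF factors were searched for with TTCAAAG or with the variant ATCAAAG. The motif TGTGGT stood for RUNX factors, the motif TGGGAA for RBPJ, which is the DNA-binding partner of Notch, and the motif CANNTG for the E box. Lck has 2 windows, because 2 starts are annotated, and the start of window 1 lies farther upstream. Window 1 was read from chr4:129573642-129573891 and window 2 from chr4:129558392-129558622, both on the minus strand. The window of Ptcra was chr17:46763713-46763962 on the minus strand, that of Cd3d was chr9:44981536-44981785 on the plus strand, and those of Cd3g, chr9:44980432-44980681, and Cd3e, chr9:45009614-45009861, were on the minus strand.
Lck window 1: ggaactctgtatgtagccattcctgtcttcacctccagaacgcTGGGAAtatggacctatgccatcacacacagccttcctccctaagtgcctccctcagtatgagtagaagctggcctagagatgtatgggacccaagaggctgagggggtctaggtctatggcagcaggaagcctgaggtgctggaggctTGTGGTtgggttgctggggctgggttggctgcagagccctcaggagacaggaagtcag
Lck window 2: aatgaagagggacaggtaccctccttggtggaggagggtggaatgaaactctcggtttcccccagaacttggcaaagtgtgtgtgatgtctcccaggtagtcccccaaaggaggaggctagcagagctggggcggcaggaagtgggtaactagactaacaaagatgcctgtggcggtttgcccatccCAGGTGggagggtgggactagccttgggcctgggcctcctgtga
Ptcra: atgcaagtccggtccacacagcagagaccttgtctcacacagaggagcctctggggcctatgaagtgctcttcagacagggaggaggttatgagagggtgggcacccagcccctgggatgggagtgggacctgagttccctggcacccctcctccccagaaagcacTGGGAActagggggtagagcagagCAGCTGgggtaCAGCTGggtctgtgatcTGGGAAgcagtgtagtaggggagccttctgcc
Cd3d: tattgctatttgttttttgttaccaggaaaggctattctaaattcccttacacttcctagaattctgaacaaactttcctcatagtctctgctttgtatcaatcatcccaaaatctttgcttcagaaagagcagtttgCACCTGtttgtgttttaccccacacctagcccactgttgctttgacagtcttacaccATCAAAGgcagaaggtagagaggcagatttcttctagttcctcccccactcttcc
Cd3e: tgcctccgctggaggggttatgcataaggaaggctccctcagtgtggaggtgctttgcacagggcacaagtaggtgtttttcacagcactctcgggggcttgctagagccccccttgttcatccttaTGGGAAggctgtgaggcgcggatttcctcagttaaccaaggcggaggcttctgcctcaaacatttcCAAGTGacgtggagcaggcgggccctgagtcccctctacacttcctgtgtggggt
Cd3g: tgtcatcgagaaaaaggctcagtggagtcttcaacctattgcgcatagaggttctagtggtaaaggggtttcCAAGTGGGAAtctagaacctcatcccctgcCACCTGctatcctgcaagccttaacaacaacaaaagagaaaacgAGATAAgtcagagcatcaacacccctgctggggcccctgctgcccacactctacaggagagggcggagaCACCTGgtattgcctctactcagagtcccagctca

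Lck window 1 held 1 match to the RUNX letters and 1 to the RBPJ letters, and Lck window 2 held 1 E box. The only TCF match in these 6 windows was the ATCAAAG of Cd3d, and the only GATA match was the AGATAA of Cd3g. Cd3g also held 1 match to the RBPJ letters and 3 E boxes, and Cd3e held 1 of each. Among 32851 promoter windows of 250 bases, 21.59% held TGGGAA, 14.05% held TGTGGT, 9.99% held AGATAA, 7.94% held TGATAA, 4.46% held TTCAAAG, 3.21% held ATCAAAG and 66.22% held an E box, so most of these letters are common. A match is a description of the sequence and does not show that a factor binds there. Cd3d and Cd3g start 1355 bases apart and point away from each other, and Cd3e lies on the same stretch of chromosome 9.

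Tcf7 (ENSMUSG00000000782, chromosome 11, 52252371 to 52283014, minus strand of mm10) encodes TCF1, the first T-lineage factor downstream of Notch. In 1MO CLPs it was at 30.6, 24.1 and 20.8 CPM, and in 3MO CLPs at 14.2, 13.6 and 16.5 CPM. In 1MO MPPs it was at 0.437, 0.995 and 1.00 CPM, and in 3MO MPPs at 0, 1.52 and 1.43 CPM. All 6 CLP libraries thus lay above all 6 MPP libraries, and the 3 libraries of 3MO CLPs lay below those of 1MO CLPs without overlap. The filter on low counts asked for about 0.753 CPM in at least 3 libraries, which Tcf7 reached in 6 CLP and 4 MPP libraries. Across the groups the order was 1MO CLP, 3MO CLP, 3MO MPP and 1MO MPP, with means of 25.2 ± 4.99, 14.8 ± 1.56, 0.983 ± 0.853 and 0.811 ± 0.324 CPM (SD, n = 3), and the ranges of the MPP groups overlapped.

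Tcf7 was 30.9-fold higher in CLPs than in MPPs at 1MO, a log2 fold change of 4.95 ± 0.71 (SE) with an adjusted p of 0.00040 in edgeR's quasi-likelihood test. At 3MO it was 14.4-fold higher, with a log2 fold change of 3.85 ± 0.67 and an adjusted p of 0.0024 in the same test. Of the 13367 genes tested, 5.38% were called in the cell type comparison at 1MO and 6.07% at 3MO, and groups without overlap were found for 24.9% and 21.8% of genes. By its p-value Tcf7 was number 127 of the genes at 1MO and number 202 at 3MO. The difference with age in CLPs did not pass the test. The log2 fold change of 3MO over 1MO was -0.77 ± 0.58, with a 95% interval from -1.998 to 0.46 and an adjusted p of 0.92 by edgeR. Groups without overlap were found for 10.6% of all genes in this comparison, so separation of the 3 and 3 libraries was not rare. In MPPs the log2 fold change with age was 0.33 ± 0.69, and -0.07 without 3MO MPP replicate 2.

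**Figure D1:**
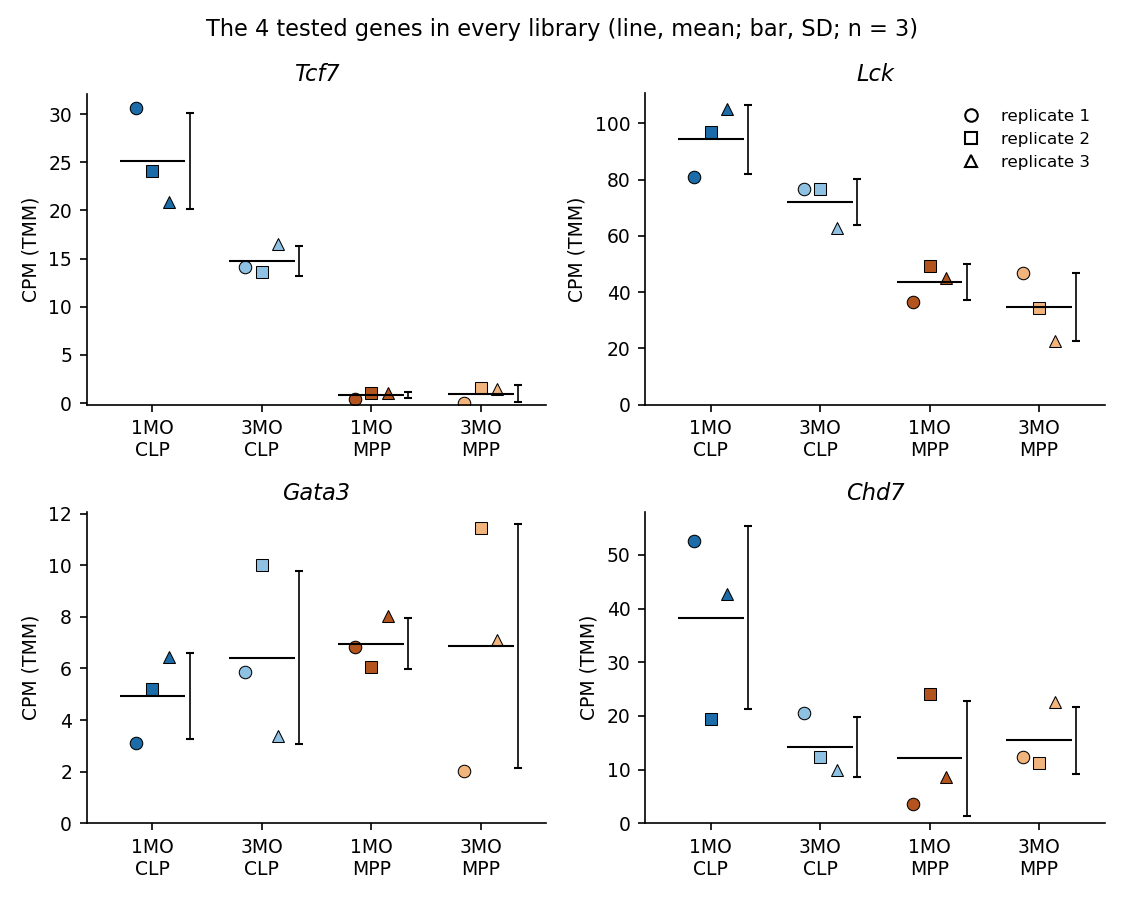
CPM after TMM scaling (y axis) of Tcf7, Lck, Gata3 and Chd7 in each library of the 4 groups (x axis), with circles, squares and triangles for replicates 1, 2 and 3, a line at the mean and a bar for the SD (n = 3). Tcf7 and Lck separate CLPs from MPPs at both ages, whereas the groups of Gata3 and Chd7 overlap between the cell types.

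Lck (ENSMUSG00000000409, chromosome 4, 129548344 to 129573641, minus strand) was the most abundant of the 10 genes per kilobase of exon in all 4 groups. In 1MO CLPs it was at 81.1, 96.7 and 105 CPM, and in 3MO CLPs at 76.8, 76.8 and 62.7 CPM. In 1MO MPPs it was at 36.6, 49.2 and 45.0 CPM, and in 3MO MPPs at 46.8, 34.4 and 22.8 CPM. The kinase gene was thus on in every library, and every CLP library lay above every MPP library. It was 2.16-fold higher in CLPs than in MPPs at 1MO (log2 fold change 1.11 ± 0.24, adjusted p = 0.010 by edgeR) and 2.09-fold higher at 3MO (1.06 ± 0.24, adjusted p = 0.015 by edgeR). Leaving out 1 library ended the call in some cases, and so did a fit of only the 6 libraries compared at 3MO. At 1MO the edgeR adjusted p was 0.051 without 1MO CLP replicate 3 and 0.066 without 1MO MPP replicate 1, and at 3MO it was 0.057 without 3MO MPP replicate 3, with log2 fold changes of 1.03, 1.00 and 0.83. Without the replicate 3 libraries, those with the most hemoglobin transcripts, the log2 fold changes were 1.06 and 0.93, with edgeR adjusted p of 0.098 and 0.130.

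With age, the mean of Lck went from 94.3 ± 12.2 to 72.1 ± 8.13 CPM in CLPs and from 43.6 ± 6.38 to 34.6 ± 11.99 CPM in MPPs (SD, n = 3). The CLP groups did not overlap and the MPP groups did. Neither difference passed the test, with log2 fold changes of -0.39 ± 0.24 in CLPs (95% interval -0.89 to 0.12, adjusted p = 0.90 by edgeR) and -0.33 ± 0.24 in MPPs (-0.84 to 0.18, adjusted p = 1.00). The estimates were close in both cell types, and the change of Lck in CLPs minus that in MPPs was -0.05 ± 0.34 on the log2 scale, with values from -0.28 to 0.22 when 1 library was left out. Lck shares exon bases with the microRNA gene Mir8119.

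Chd7 (ENSMUSG00000041235, chromosome 4, 8690406 to 8867659, plus strand) encodes a chromatin remodeler of the CHD family that slides nucleosomes at enhancers. In 1MO CLPs it was at 52.6, 19.4 and 42.7 CPM, and in 3MO CLPs at 20.6, 12.3 and 9.96 CPM. In 1MO MPPs it was at 3.54, 24.1 and 8.62 CPM, and in 3MO MPPs at 12.4, 11.3 and 22.7 CPM. The 1MO CLPs were the group that stood highest, but replicate 2 of that group lay within the range of the 3MO CLPs and of the MPPs. Chd7 had the largest log2 fold change with age among the 4 tested genes, -1.42 ± 0.56 in CLPs. Its 95% interval ran from -2.61 to -0.24, its unadjusted p was 0.0216 in edgeR's test, and its adjusted p over all genes was 0.79. DESeq2 gave it an adjusted p of 0.40. In MPPs the log2 fold change was 0.37 ± 0.55, and the interaction was -1.80 ± 0.78, with an unadjusted edgeR p of 0.0366 and an adjusted p of 1.00. In CLPs the log2 fold change with age lay between -1.78 and -1.13 when 1 library was left out. In MPPs it turned to -0.07 without 1MO MPP replicate 1 and to -0.02 without 3MO MPP replicate 3, and rose to 1.34 without 1MO MPP replicate 2. The interaction was -2.76 without 1MO MPP replicate 2 and -0.92 without all replicate 3 libraries.

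At 1MO, Chd7 was 3.19-fold higher in CLPs than in MPPs, a log2 fold change of 1.68 ± 0.56 whose adjusted p of 0.113 by edgeR did not pass. It passed with DESeq2 (adjusted p = 0.033), with no filter on low counts (edgeR adjusted p = 0.0061) and without 1MO MPP replicate 2 (log2 fold change 2.64, edgeR adjusted p = 0.013). At 3MO the log2 fold change was -0.12 ± 0.55, with an interval from -1.29 to 1.05, and it was 0.27 without 3MO MPP replicate 3. None of the 8 other CHD genes tested was called in any of the 5 comparisons. Over all tested genes, at most 6.07% were called in any of them. With age in CLPs, 4 of the 8 had a log2 fold change below 0 and 4 above. The smallest p there was that of Chd5 (-3.03 ± 1.69, edgeR adjusted p = 0.89). Chd5 was low, at 0.823 to 0.997 CPM in 1MO CLPs and 0 to 0.315 CPM in 3MO CLPs. The 3 with the smallest p for the cell types at 1MO were Chd4, Chd1 and Chd3, with log2 fold changes of 0.24, 0.13 and -0.15. Chd4, the core ATPase of the NuRD complex, was at 197 CPM per kilobase in 1MO CLPs, against 2.78 for Chd7.

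Gata3 (ENSMUSG00000015619, chromosome 2, 9857078 to 9890034, minus strand) encodes the zinc finger factor that works with TCF1 to start the T-cell program. In 1MO CLPs it was at 3.13, 5.21 and 6.43 CPM, and in 3MO CLPs at 5.85, 10.01 and 3.40 CPM. In 1MO MPPs it was at 6.82, 6.06 and 8.02 CPM, and in 3MO MPPs at 2.03, 11.5 and 7.11 CPM. Gata3 was therefore detected in all 12 libraries at a low level, and the ranges overlapped in all comparisons of 2 groups. The log2 fold changes were 0.39 ± 0.60 with age in CLPs, -0.02 ± 0.60 with age in MPPs, -0.50 ± 0.60 between the cell types at 1MO and -0.09 ± 0.60 at 3MO. The 95% interval of the last ran from -1.36 to 1.17, and so held differences in either direction. The sign turned when 1 library was left out in all of these except that between the cell types at 1MO. Gata3 shares exon bases with 9230102O04Rik on its own strand and with Gm13256 on the other strand, so its counts may hold reads of the former.

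Another GATA gene was lower in CLPs. Gata2, a factor of stem cells and myeloid progenitors, was at 94.2 to 106 CPM in 1MO MPPs and 10.8 to 19.0 CPM in 1MO CLPs, a log2 fold change of -2.74 ± 0.35 (edgeR adjusted p = 0.00016). Gata1, the erythroid factor, had a log2 fold change of -1.94 ± 1.04 and was not called. Among the relatives of Tcf7, neither Tcf7l1, Tcf7l2 nor Lef1 was called in any of the 5 comparisons. Over all tested genes, 5.38% were called between the cell types at 1MO and 6.07% at 3MO, and at most 0.0748% in the other comparisons. Tcf7l2 was at 42.0 to 55.4 CPM in 1MO CLPs and 38.3 to 50.8 CPM in 1MO MPPs, so the gap between the cell types seen for Tcf7 was not found for it. Lef1, the relative that joins Tcf7 later in T-cell development, was at most 2.14 CPM. It was at 0.193 to 2.14 CPM in 1MO CLPs, 0.0912 to 0.8125 CPM in 3MO CLPs and at most 0.212 CPM in MPPs. Its log2 fold change between the cell types at 1MO was 3.48 ± 1.84 (edgeR adjusted p = 0.42). Lef1 passed the filter on low counts only through the CLPs and lay near its limit, so the missing call says little.

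**Figure D2:**
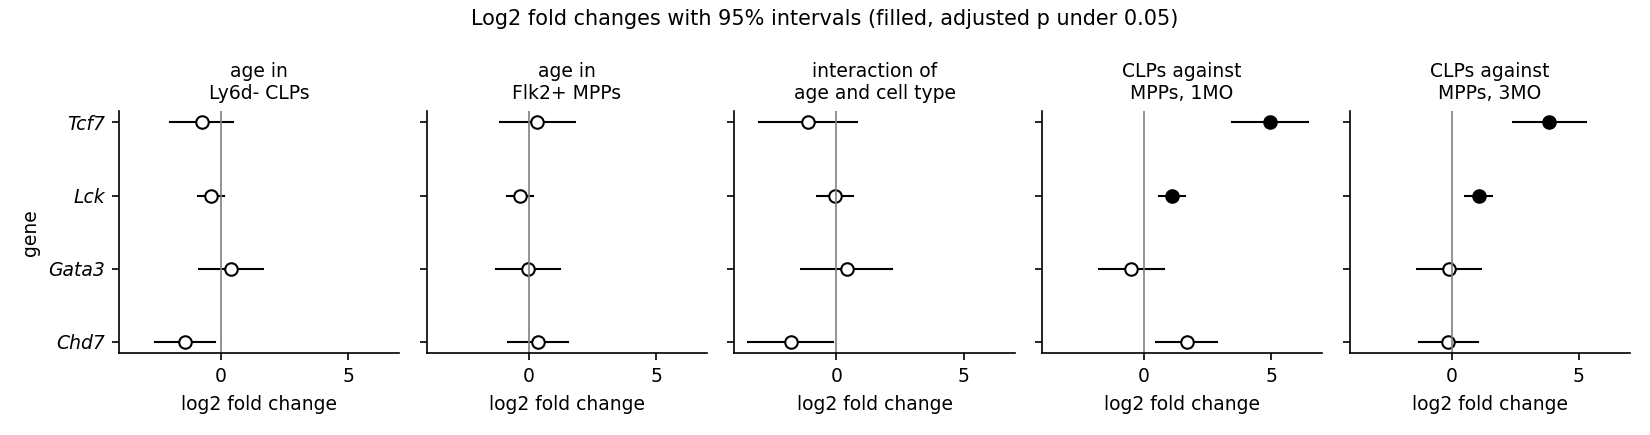
Log2 fold changes (x axis) of Tcf7, Lck, Gata3 and Chd7 (y axis) in the 5 comparisons, as points with 95% intervals, filled where the edgeR adjusted p was under 0.05. Age is 3MO over 1MO and cell type is CLPs over MPPs, and only Tcf7 and Lck between the cell types are filled.

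The remaining 6 genes stood at or near 0. Of their 72 values, 53 were 0, and the other 19 added up to 115.9 estimated counts over all libraries. Each of them failed the filter on low counts, with at most 2 libraries at its limit, so no test was made and their levels are given as counts. A value of 0 allows up to 3 counts in a library, which is 0.148 to 0.329 CPM, for counting error only.

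Bcl11b (ENSMUSG00000048251, chromosome 12, 107910403 to 108003602, minus strand), the gene of T-lineage commitment, was above 0 in 4 libraries. It had 12.4 and 3.1 counts in 1MO CLP replicates 2 and 3, 3.8 in 1MO MPP replicate 2 and 18.4 in 3MO MPP replicate 2, or at most 1.32 CPM. No count was found in 3MO CLPs. Its highest value was thus in the multipotent progenitors, and 48.7% of all its counts came from that 1 library. Its relative Bcl11a, a factor of early B-lineage and lymphoid progenitors, was at 362 to 515 CPM in all libraries and was called in none of the comparisons.

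Ptcra (ENSMUSG00000036858, chromosome 17, 46755663 to 46763712, minus strand), whose window above held 2 matches to the RBPJ letters and 2 E boxes, had 15.2 counts in 1MO CLP replicate 3. It had 2.0 counts in 1MO MPP replicate 3 and 1.0 in 3MO MPP replicate 3, and was at 0 elsewhere. A single library thus held 83.4% of the counts of this pre-TCR gene.

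Il2ra (ENSMUSG00000026770, chromosome 2, 11642807 to 11693193, plus strand), the alpha chain of the IL-2 receptor, had 16.2 counts in 1MO CLP replicate 2 and 9.2 in 3MO MPP replicate 1. It had 5.0 counts in 3MO CLP replicate 2 and 1.0 each in 1MO CLP replicate 1 and 3MO CLP replicate 3. All 3 libraries of 1MO MPPs were at 0. No group was above 0 in all 3 of its libraries.

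The receptor list around Il2ra held 8 genes, namely the beta and gamma chains of the IL-2 receptor (Il2rb and Il2rg), the related chains Il7r and Il15ra, and the kinases and STAT factors below them, and all 8 were tested. At 1MO, Il7r and Il2rb were higher and Il2rg and Jak3 lower in CLPs, and 4 were not called. At 3MO, Il7r was higher, Il2rg and Jak3 were lower, and 5 were not called. The median log2 fold change of the 8 was -0.27 at 1MO and -0.22 at 3MO, against -0.02 and -0.03 over all tested genes, of which 5.38% and 6.07% were called. Il7r, the receptor chain for the cytokine that lymphoid progenitors depend on, had the largest difference of the list at 1MO (5.19 ± 0.38, edgeR adjusted p = 1.3e-06). Il2rb, the beta chain that binds IL-2 together with Il2ra, was at 4.22 to 9.13 CPM in 1MO CLPs and 0 to 0.794 CPM in 1MO MPPs, but its difference at 3MO was not called (0.98 ± 0.98, adjusted p = 0.67 by edgeR). None of the 8 was called with age in either cell type.

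The genes of the CD3 chains stand next to each other on chromosome 9. Cd3d (ENSMUSG00000032094, 44981786 to 44987339, plus strand) had 3.0 counts in 1MO CLP replicate 2 and 8.7 in 3MO CLP replicate 1. Cd3e (ENSMUSG00000032093, 44998740 to 45009627, minus strand) had 2.9 and 3.0 counts in 1MO CLP replicates 1 and 2 and 2.0 in 1MO MPP replicate 2. Cd3g (ENSMUSG00000002033, 44969572 to 44980431, minus strand) had 6.0 counts in 3MO CLP replicate 3 and 2.0 in 3MO MPP replicate 3. These 3 genes together had 27.6 estimated counts over all 12 libraries, 6 libraries held any of them, and 0 libraries held all 3. Cd3d was at 0 in all 6 MPP libraries. Depletion of CD3+ cells before the sort acts on cells that carry these chains, so the levels are those of progenitors sorted from depleted BM. Cd3e shares exon bases with Gm48719, which lies on the other strand.

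**Figure D3:**
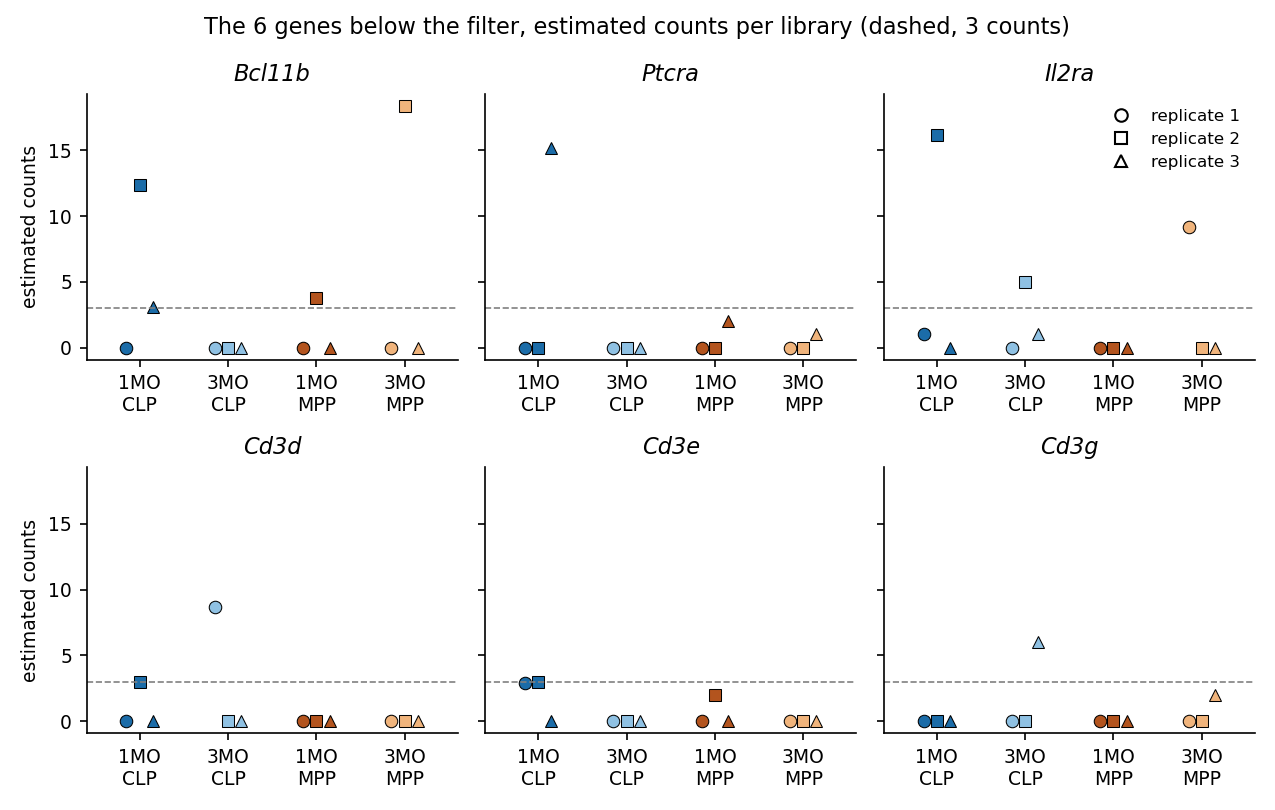
Estimated counts (y axis) of Bcl11b, Ptcra, Il2ra, Cd3d, Cd3e and Cd3g in each library of the 4 groups (x axis), with circles, squares and triangles for replicates 1, 2 and 3 and a dashed line at 3 counts. Most of the points lie at 0, the highest is 18.4 counts for Bcl11b, and the highest counts of the 6 genes fall in different libraries, apart from those of Il2ra and Cd3e.

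Compared per kilobase of exon, the 4 tested genes kept a wide order. In 1MO CLPs, Lck was at 32.2 ± 4.15, Tcf7 at 9.59 ± 1.90, Chd7 at 2.78 ± 1.24 and Gata3 at 1.24 ± 0.420 CPM per kilobase (SD, n = 3). In 1MO MPPs the order was Lck (14.9 ± 2.18), Gata3 (1.75 ± 0.250), Chd7 (0.876 ± 0.776) and Tcf7 (0.309 ± 0.123), so by group means Tcf7 was second in CLPs and last in MPPs. The 6 low genes were at most 0.251 CPM per kilobase as the mean of any group. At 1MO the libraries of Chd7 and Gata3 overlapped in both cell types, and those of Chd7 and Tcf7 overlapped in MPPs, so the order within these pairs was within the spread.

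The kinase gene was read together with the T cell receptor complex it serves. In 1MO CLPs, Lck at 32.2 CPM per kilobase stood beside Cd3e at 0.0337 and Cd3d at 0.0275. All 14 genes of the signal arm below the receptor were tested. At 1MO, Cd247 and Zap70 were higher in CLPs, Prkcq was lower and 11 were not called, and at 3MO Cd247 was higher, Lcp2 and Prkcq were lower and 11 were not called. The median log2 fold change of the 14 was 0.14 at 1MO and 0.13 at 3MO, against -0.02 and -0.03 over all tested genes, of which 5.38% and 6.07% were called.

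Cd247, the zeta chain that carries most of the phosphorylation sites of the receptor and also serves NK cell receptors, was the CD3-associated chain that was expressed. It was at 17.2, 13.7 and 13.8 CPM in 1MO CLPs and 3.33, 1.25 and 2.65 CPM in 1MO MPPs. The CLP libraries lay above all MPP libraries, with a log2 fold change of 2.63 ± 0.43 (edgeR adjusted p = 0.0013), and at 3MO of 2.38 ± 0.43 (edgeR adjusted p = 0.0030). Fcer1g, the other signal chain of this kind, was not called at 1MO (0.91 ± 0.49, adjusted p = 0.42 by edgeR). Zap70, the kinase that docks on chains phosphorylated by Lck, was at 6.63, 10.8 and 6.21 CPM in 1MO CLPs and 1.29, 0.918 and 0.293 CPM in 1MO MPPs. Its log2 fold change was 3.27 ± 0.73 at 1MO (edgeR adjusted p = 0.014) and 1.62 ± 0.68 at 3MO (adjusted p = 0.20). Prkcq, which encodes protein kinase C theta, went the other way at 1MO (-1.01 ± 0.23, edgeR adjusted p = 0.013). With age in CLPs, none of the 14 was called, and the smallest p was that of the phosphatase gene Ptpn22 (0.64 ± 0.20, edgeR adjusted p = 0.62).

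**Figure D4:**
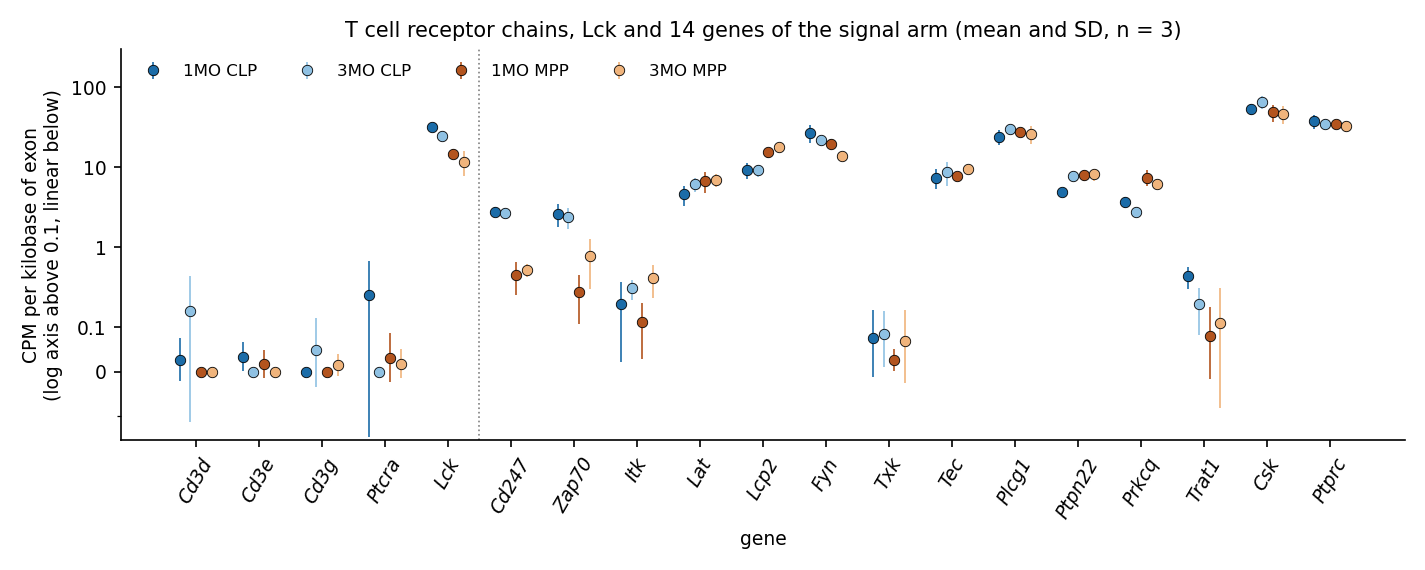
CPM per kilobase of exon (y axis, logarithmic above 0.1 and linear below) of Cd3d, Cd3e, Cd3g, Ptcra and Lck, left of the dotted line, and of the 14 signal arm genes, right of it, as the mean and SD of each group (n = 3). Lck and most kinases and adaptors lie above 1, whereas the CD3 genes and Ptcra lie at most at 0.251, and Cd247 at both ages and Zap70 at 1MO are higher in CLPs than in MPPs.

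The other members of the Src kinase family were measured in the same libraries. All 7 were tested, Blk and Fgr were higher in CLPs at 1MO, Blk was higher at 3MO, and the median log2 fold change was 0.32 and 0.36, against -0.02 and -0.03 over all tested genes, of which 5.38% and 6.07% were called. Blk, the Src kinase of B-lineage cells, was at 13.4 to 18.6 CPM in 1MO CLPs and at most 0.0961 CPM in 1MO MPPs. In 3MO MPPs it was at 0, 2.85 and 4.68 CPM. Blk thus passed the filter on low counts only through the CLPs, so its calls are no support for a difference of the list. Fgr, known from myeloid cells, had a log2 fold change of 2.51 ± 0.63 (edgeR adjusted p = 0.029). Fyn, the kinase that shares functions with Lck in T cells, had a log2 fold change of 0.47 ± 0.20 at 1MO and did not pass (edgeR adjusted p = 0.25).

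Around the transcription factors, 21 other T-lineage regulators were all tested. At 1MO, 4 were higher in CLPs (Ets1, Ikzf1, Satb1 and Tcf4), 2 were lower (Gfi1 and Zfpm1) and 15 were not called. At 3MO, Ets1, Ikzf1 and Satb1 were higher, Zfpm1 was lower and 17 were not called. The median log2 fold change was 0.44 at 1MO and 0.24 at 3MO. Over all tested genes, 5.38% were called at 1MO and 6.07% at 3MO, with medians of -0.02 and -0.03. Ets1, a factor of lymphoid cells, was at 216 to 252 CPM in 1MO CLPs and 80.7 to 94.3 CPM in 1MO MPPs (1.41 ± 0.15, edgeR adjusted p = 3.8e-05). Ikzf1, which encodes Ikaros, had a smaller difference (0.83 ± 0.14, edgeR adjusted p = 0.0013). Zfpm1, which encodes the GATA partner FOG1, was lower in CLPs (-1.42 ± 0.25, edgeR adjusted p = 0.0023). None of the 21 was called with age, and 15 of them had a log2 fold change below 0 in CLPs, with a median of -0.13, beside 51.2% of all tested genes and a median of -0.01.

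Upstream of Tcf7, 9 of the 12 genes of the Notch arm were tested. Notch1, the receptor through which thymic ligands act, was at 1399 to 1584 CPM in 1MO CLPs, 1268 to 1647 CPM in 3MO CLPs and 504 to 693 CPM in 1MO MPPs. It was higher in CLPs at 1MO (1.32 ± 0.17, edgeR adjusted p = 0.00018) and at 3MO (1.19 ± 0.17, edgeR adjusted p = 0.00045), and no other gene of the arm was called, so 1 of 9 was called at each age beside 5.38% and 6.07% of all tested genes. With age in CLPs, 8 of the 9 had a log2 fold change below 0, with a median of -0.29, beside 51.2% of all tested genes below 0 and a median of -0.01. By edgeR, 0 of the 9 passed the test. Notch1 itself was at -0.07 ± 0.17. Hes1, a direct Notch target, was at 1.97 to 5.76 CPM in 1MO CLPs and at most 0.420 CPM in 1MO MPPs, and its difference was not called (edgeR adjusted p = 0.15).

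The genes that make and rearrange antigen receptors were read as a list of their own. Of 10 genes in the table, 6 were tested, and 4 of these (Rag1, Rag2, Dntt and Tcrg-C1) were called higher in CLPs at both ages, beside 5.38% of all tested genes called at 1MO and 6.07% at 3MO. Tcrg-C1 was at 0 in all 6 MPP libraries and passed the filter on low counts only through the CLPs, so its call is no support for a difference of the list. Rag1, the recombinase subunit, was at 266, 197 and 326 CPM in 1MO CLPs, 79.8, 83.9 and 126 CPM in 3MO CLPs and at most 13.4 CPM in MPPs. It was 21.4-fold higher in CLPs at 1MO (4.42 ± 0.29, edgeR adjusted p = 2.9e-07), and among the T-lineage lists it was the gene called with age in CLPs (-1.45 ± 0.25, edgeR adjusted p = 0.043). Dntt, which encodes terminal transferase, had a log2 fold change of 2.64 ± 0.21 between the cell types at 1MO, and Rag2 one of 2.76 ± 0.38. Tcrg-C1, a gamma chain constant region, had 15.7, 68.4 and 11 counts in 1MO CLPs and 4.9, 57.3 and 47.9 in 3MO CLPs, so at 1MO most of its counts came from replicate 2.

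Among T surface genes, 10 of 13 were tested, with Cd28, Cd44 and Cd6 higher in CLPs at 1MO and Cd28 and Cd6 at 3MO. Cd28, the costimulatory receptor, was at 31.0 to 39.3 CPM in 1MO CLPs and 1.87 to 2.38 CPM in 1MO MPPs (4.03 ± 0.61, edgeR adjusted p = 0.00067). Cd44 and Cd6 had log2 fold changes of 0.67 ± 0.15 and 1.91 ± 0.49. The median of the 10 was 1.44 at 1MO and 0.66 at 3MO, beside -0.02 and -0.03 over all tested genes and shares called of 5.38% and 6.07%. With age in CLPs none of the 10 was called, and the median was -0.22, against -0.01 over all tested genes.

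Over the 10 specification genes, 0 were called with age in CLPs, 0 with age in MPPs and 0 in the interaction by edgeR, beside 0.0748%, 0.0224% and 0% of the 13367 tested genes. DESeq2 also called 0 of the 4 tested genes in these comparisons. Over all genes, edgeR called 10 with age in CLPs, 3 with age in MPPs and 0 in the interaction, while 789, 465 and 429 had an unadjusted p under 0.05 and DESeq2 called 66, 35 and 7. Groups without overlap, for Tcf7 and Lck in CLPs, stood beside 10.6% of all genes in CLPs and 8.57% in MPPs.

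Markers of other cells moved with the same groups. The summed level of the 5 stromal markers (Col1a1, Col1a2, Col3a1, Lamb2 and Bglap, all with a count) was 206 to 592 CPM in 1MO CLPs, 1.23 to 4.28 CPM in 3MO CLPs, 23.6 to 92.5 CPM in 1MO MPPs and 9.42 to 20.0 CPM in 3MO MPPs. The 8 B-lineage markers, all with a count, summed to 96.4 to 136 CPM in 1MO CLPs, 60.2 to 77.9 CPM in 3MO CLPs and 8.93 to 25.5 CPM in MPPs. The 7 plasmacytoid dendritic markers, all with a count, summed to 960 to 1073 CPM in 1MO CLPs, 812 to 947 CPM in 3MO CLPs and 108 to 166 CPM in MPPs. In CLPs most of this sum came from Irf8 alone. That gene was at 805 to 897 CPM in 1MO CLPs, 682 to 802 CPM in 3MO CLPs and 51.4 to 99.6 CPM in MPPs. The 10 alpha-beta T markers, 9 with a count, summed to 70.4 to 90.3 CPM in CLPs and 16.1 to 35.8 CPM in MPPs, and in CLPs most of it came from Cd6 and Cd28. The 10 NK markers, with Gzma at 0 in every library, summed to 11.6 to 45.5 CPM over all libraries, and the 10 markers of innate lymphoid cells, with Areg at 0, to 44.5 to 91.4 CPM. The 5 basophil and mast cell markers summed to 27.3 to 61.1 CPM in 1MO CLPs and 56.9 to 66.9 CPM in 3MO CLPs. In MPPs they summed to 57.6 to 120 CPM at 1MO and 69.6 to 150 CPM at 3MO. Of the remaining lists, neutrophil and monocyte markers summed to 682 to 1454 CPM and erythroid markers to 16.9 to 135 CPM. The part of these cells in the values of the specification genes was not tested.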

How the data were processed

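RNA of Ly6d- CLPs and Flk2+ MPPs sorted per mouse was measured in 12 libraries, 3 for each of 4 groups given by the labels. The authors made the libraries with a strand-specific kit from polyadenylated RNA, processed reads with FastQC, UMI-tools, Trim Galore, SortMeRNA, STAR and Salmon on mm10 per the labels and methods, and deposited 1 table of estimated counts per gene (expected counts), scaled for transcript length and not for depth. The annotation release is not given in the sources used here, and 0 columns were left unmatched. The specification genes and all gene lists were chosen with earlier results of these data known.

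Estimated counts were rounded to whole numbers and tested with edgeR 4.0.16 in R 4.3.3 (quasi-likelihood test, filterByExpr, TMM, 1 fit of 4 groups without covariates), with Benjamini-Hochberg adjustment over all 13367 tested genes and calls at an adjusted p under 0.05. Log2 fold changes are 3MO over 1MO or CLPs over MPPs, the SE comes from the test statistic, and intervals are 95%. Median log2 fold changes over all tested genes lay between -0.03 and -0.01. CPM values use TMM, and CPM per kilobase uses the merged exons of GENCODE M21 on GRCm38, which held 32158 of the 32285 genes. Totals of 8889083 to 20677785 counts set the precision, and intervals from 3 counts cover counting error only. The tests were checked on simulated counts. No pair of replicates held identical values. The study gives 3 independent experiments with cells sorted per mouse, but which libraries came from the same mouse is not stated, so p-values measure the spread between these libraries.

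Genes named are all 10 specification genes in every comparison and, from each list, at most the 3 tested genes with the smallest p for age in CLPs and the 3 with the smallest p between the cell types at 1MO, together with the called genes of a list where few were called. The genes of the marker lists used to describe the sorted cells were named as well, and genes outside the rule (such as Lcp2, Satb1, Tcf4, Gfi1, Il2rg and Notch1 with age) were chosen after their values were seen. Alternatives were DESeq2 1.42.0, other scaling factors and filters, thinning to the smallest total, fits of only the libraries compared, the replicate number as a block, each library left out, and, chosen after seeing the data, all replicate 3 libraries left out.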

Additional observations from a re-analysis of the deposited data

How the results depend on the processing

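Of 327 log2 fold changes of the 4 tested genes under alternatives, 295 kept their direction and their side of the threshold, 23 changed direction without any of them passing the threshold, 6 lost a call and 3 gained one. Tcf7 kept its call between the cell types in every alternative that tested it. With libraries left out, its edgeR adjusted p rose to at most 0.0186 at 1MO and 0.04995 at 3MO, the latter just under the threshold. It could not be tested where at least 10 counts were asked for in every library, which left 1 specification gene called at each age. Lck kept its calls except for the libraries named beside its values, without all replicate 3 libraries, and at 3MO in a fit of only the 6 libraries compared (1.06, edgeR adjusted p = 0.078), which left 1 called. Without 1 library, the specification genes called, of the 4 tested, ranged from 1 to 3 at 1MO and from 1 to 2 at 3MO. Without all replicate 3 libraries 1 was called at each age. In that fit the genes called over all genes also fell, from 719 to 258 at 1MO and from 812 to 290 at 3MO.

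Counts of all genes called moved more. With DESeq2 they were 66 with age in CLPs, 35 with age in MPPs, 7 in the interaction, 1234 between the cell types at 1MO and 1420 at 3MO. With no filter they were 46, 26 and 6 for the first 3, and with at least 10 counts in every library 4 and 1 for the ages in CLPs and MPPs. A fit of only the 6 libraries gave 4 with age in CLPs and 435 between the cell types at 3MO. With 1 library left out the ranges were 6 to 10, 3 to 5, 0 to 1, 460 to 623 and 553 to 669. Without all replicate 3 libraries, where fewer samples were fitted, they were 2, 1, 1, 258 and 290.

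The direction changes were in small estimates. Gata3 between the cell types at 3MO came to 0.04 with a replicate block by number, 0.051 with a block by age and number, and 0.055 after thinning. Without all replicate 3 libraries, Gata3 was 0.069 and Chd7 -0.22 with age in MPPs, and Gata3 was 0.238 and Chd7 0.47 between the cell types at 3MO. With 1 library left out, the ranges that crossed 0 were -0.095 to 0.688 for Gata3 with age in CLPs, -0.61 to 0.41 for Gata3, -0.072 to 0.86 for Tcf7 and -0.069 to 1.34 for Chd7 with age in MPPs, -0.074 to 0.99 for Gata3 and -0.28 to 0.22 for Lck in the interaction, and -0.57 to 0.49 for Gata3 and -0.47 to 0.268 for Chd7 between the cell types at 3MO. The cause was not tested.

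Same-numbered libraries of 2 groups had correlations of their deviations from -0.03 to 0.21, and over 0.1 in at most 1 of 3 pairs of a comparison, so the numbers were not taken to pair the libraries. The replicate 3 libraries of all 4 groups did share high hemoglobin transcripts (79.1 to 125 CPM, against 8.97 to 25.1 CPM in the others), and the sample indices in the column names run together by number. What else same-numbered libraries share was not tested. Between 3 and 4 of 6 libraries were closest to their own number. With a replicate block by number, 915 genes were called between the cell types at 1MO and 1007 at 3MO, against 719 and 812 without it, and no call of a specification gene changed.

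Limits: 3 libraries a group leave wide intervals, the low genes rest on at most 18.4 estimated counts in a library, and gene-level counts do not show which promoter or isoform was used.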
